A study of Mus musculus with 8 samples.

Results

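Translation initiation factors bring the small ribosomal subunit, the initiator tRNA and the mRNA together. eIF4F, made of the cap-binding protein eIF4E, the scaffold eIF4G and the helicase eIF4A, engages the 5′ end of the mRNA. eIF3 links it to the small subunit, eIF2 delivers the initiator tRNA, and eIF1, eIF1A and eIF5 set the choice of the start codon. In neurons, control of eIF4E by its binding proteins and of eIF2 by its kinases is known for its part in synaptic plasticity and memory. The genes described here are the protein-coding mouse genes whose symbol begins with Eif and a digit, with pseudogenes left out. The rule uses the symbol alone and no measured value, though it was set with earlier results of these data known. Of 56 such RefSeq genes on GRCm38.p6, 55 were joined to a gene of the count table, out of 55401 genes in all. The gene not joined was Eif2s3y, and 53 of the 55 had enough counts to be tested against Input.

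The mRNAs were measured in RNA immunoprecipitation (RIP), in which an antibody recovers a protein from a lysate together with RNA that comes along. All 8 libraries were from C57BL/6 mice and tissue labelled hippocampus. In 3 RIP libraries the antibody was against CaMKIIβ, the β form of a kinase of synapses that calcium and calmodulin switch on, in 3 it was control IgG, and 2 Input libraries held RNA taken without any antibody. Genotype beyond the strain, age, sex, any treatment, and whether animals were pooled or shared between libraries are not given in the sources used here, so that p-values measure the spread between these libraries, which may be technical.

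Libraries held 17273957 to 28138289 counts. Levels are given as CPM, the usual depth-scaled count, with libraries scaled by the trimmed mean of M values (TMM) over all 8. CaMKIIβ RIP replicate 2 stood apart, with at least 1 count for 19247 genes against 24865 to 31152 in the others. The tissue label was not borne out in full: 10 cerebellar markers summed to 3226 to 3264 CPM in Input and 10 hippocampal and telencephalic markers to 655 to 688 CPM, though single genes of the lists overlapped in level. The cerebellar genes ran from 18.2 (Eomes) to 774 CPM (Cbln3) in mean Input level and the hippocampal ones from 7.25 (C1ql2) to 227 (Neurod1), and some of these genes, such as Neurod1 and Calb1, are used in both tissues. Mitochondrially encoded genes took 1.92% and 2.08% of counts in Input and 0.36% to 0.858% in the RIP libraries. In bulk RNA, fewer cells of a type and less RNA per cell cannot be told apart.

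Initiation factor mRNAs took 0.487% and 0.505% of the counts in Input. In the CaMKIIβ RIP libraries they took 0.382% to 0.403%, and in the IgG RIP libraries 0.38% to 0.393%. Their summed level was 4550 ± 112 CPM (SD, n = 2) in Input, 4025 ± 118 in CaMKIIβ RIP and 3994 ± 40.6 in IgG RIP (n = 3 each). The RIP libraries of both antibodies thus lay below both Input libraries in this sum.

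Divided by exon length, the highest levels in Input were those of Eif4a2, a paralogue of the helicase eIF4A, at 85.5 ± 1.11 CPM per kb (SD, n = 2), and Eif1, the start codon fidelity factor, at 77.7 ± 12.3. With an SD that wide for Eif1, the order of the pair was not set by these 2 libraries. Next came Eif4g2, an eIF4G relative that lacks the eIF4E-binding part (54.0 ± 4.6), Eif5a, an elongation and termination factor named as an initiation factor (49.0 ± 1.38), and Eif1b (40.4 ± 3.96), a paralogue of Eif1. Eif4g1 (39.9 ± 0.812), Eif4b (39.7 ± 0.21) and Eif4h (39.3 ± 2.93) differed from Eif1b by less than its spread. Subunits of eIF2 were unequal, with Eif2s3x at 21.0 ± 0.989, Eif2s1 at 6.9 ± 0.369 and Eif2s2 at 6.37 ± 0.639 CPM per kb. At the lower end lay the eIF4E-binding protein gene Eif4ebp1, with 6 to 26 counts in a library, and Eif3j2, with 1 to 17 counts. The germline cap-binding gene Eif4e1b and Eif4a3l1 had 0 counts in every library, which allows up to 0.107 to 0.174 CPM, the value of 3 counts, by counting error alone. How reads with several positions were counted is not given in the sources used here, so values of near-identical copies such as Eif3j1 and Eif3j2, or Eif4a3 and Eif4a3l1, are uncertain.

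**Figure D1:**
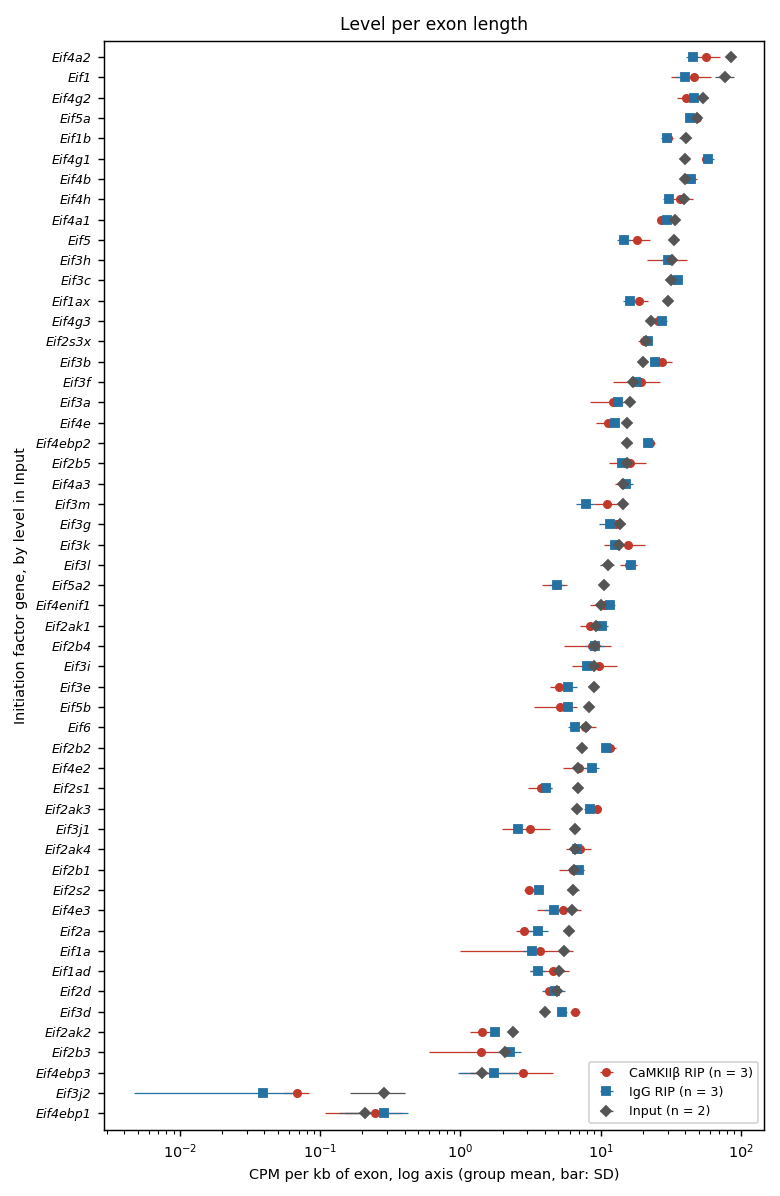
Level of each initiation factor gene with counts in all libraries as CPM per kb of exon (log axis), with the mean and SD of CaMKIIβ RIP (n = 3), IgG RIP (n = 3) and Input (n = 2), ordered by the level in Input. Eif4a2 stands at the top at 85.5 in Input, with both RIP groups to its left.

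Start sites of 43 members were found in RefSeq on GRCm38.p6, as windows from 250 bases before to 50 after the annotated start. The E box letters CACGTG, which read the same on both strands, were in the window of 10 of the 43 (23.3%), against 8.91% of 17491 protein-coding genes with a window. Of those 10 genes, 1 rose (Eif4g1), 5 fell and 4 did not pass in IgG RIP against Input, as described below. The box nearest before the start is shown for each gene that rose or fell but Eif3a, whose box lay after the start. The lines show where the letters lie. Of the genes printed only Eif4g1 rose, and whether the letters bear on direction was not tested. Capitals mark the E box, each line reads 5′ to 3′ along the gene, and the first capital lies 54, 64, 96, 24 and 117 bases before the start in the order of the lines.
Eif4g1, chr16:20672661-20672690 (+): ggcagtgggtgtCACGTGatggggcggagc
Eif4e, chr3:138527192-138527221 (+): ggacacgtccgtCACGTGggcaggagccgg
Eif4h, chr5:134639488-134639517 (-): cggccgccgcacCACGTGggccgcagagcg
Eif1b, chr9:120492570-120492599 (+): cgtgcggacggtCACGTGgcggcggcgcgc
Eif5a2, chr3:28781148-28781177 (+): cagggcgagcttCACGTGacggggcgggac
The GC box letters GGGCGG (both strands) were in 32 of 43 members' windows (74.4%) against 49.2% of protein-coding genes, CCAAT in 16 (37.2% against 42.3%) and TATAAA in 3 (6.98% against 14.8%). These matches are letters in a window, not sites shown to be used, and the words can overlap each other. The members' windows were rich in G and C. Their median share of G and C was 61.2%, 66% and 59% for members higher, lower and not past with IgG. It was 52.7% over all windows. The background was not matched for this share or for the number of starts per gene.

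A terminal oligopyrimidine (TOP) tract, a C at the first transcribed base followed by pyrimidines, is the mark of mRNAs whose translation follows mTOR. With at least 5 pyrimidines required, it was found at the RefSeq start of 2 of 43 members (4.65%), against 2.67% of protein-coding genes. Those were Eif3f and Eif2s3x, printed here as the members with such a tract, and neither mRNA passed the threshold against Input with either antibody. Capitals are transcribed bases, and each tract is 11 bases long.
Eif3f, chr7:108934400-108934429 (+): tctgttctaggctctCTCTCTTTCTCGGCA
Eif2s3x, chrX:94212637-94212666 (-): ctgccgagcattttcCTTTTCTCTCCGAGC
Annotated starts can miss the starts in use, so the absence of a tract elsewhere says only that these letters are not at that base.

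The comparison of the antibodies addresses which mRNAs came down with CaMKIIβ beyond what control IgG recovered. Of 52 initiation factor genes tested, 0 passed the threshold in either direction (edgeR quasi-likelihood test, Benjamini-Hochberg adjusted p under 0.05 over all 20566 genes tested, of which 0% were called higher and 0% lower). An unadjusted p under 0.05 was reached by 1 member, and DESeq2 and limma-voom also called 0 with 1 such member each. The median log2 fold change of the members was 0.02, against -0.02 for all genes tested. The 95% interval lay within 2-fold on both sides for 48 of the 52, so that larger differences between the antibodies remain possible by this test for Eif2b3, Eif1a, Eif4ebp1 and Eif4ebp3. Of all genes tested, 52% had an interval that narrow.

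The member with the smallest p was Eif3m, which encodes an eIF3 subunit. Its level was 22.4, 33.1 and 30.5 CPM in CaMKIIβ RIP replicates 1 to 3 and 21.2, 17.1 and 22.6 in IgG RIP. One CaMKIIβ RIP library lay inside the IgG range, and the log2 fold change of 0.51 ± 0.20 (SE) had an adjusted p of 0.982. Eif3d, a subunit that can bind the mRNA cap, was at 32.5, 30.4 and 35.4 CPM with CaMKIIβ and 27.3, 24.2 and 28 with IgG. These groups did not overlap, and the log2 fold change was 0.32 ± 0.15, with adjusted p = 0.982. The haem-regulated kinase gene Eif2ak1 gave -0.28 ± 0.15, Eif4a2 0.31 ± 0.17, the helicase cofactor gene Eif4h 0.28 ± 0.15 and Eif5 0.31 ± 0.17, each with overlapping libraries and the same adjusted p. Over the 52 members, 3 had all CaMKIIβ RIP libraries above IgG RIP (4.57% of all genes) and 3 had them below (7.33% of all genes). The 3 above were Eif3d, Eif5a and the kinase gene Eif2ak3. The 3 below were Eif4g2, Eif2s2 and the kinase gene Eif2ak2.

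**Figure D2:**
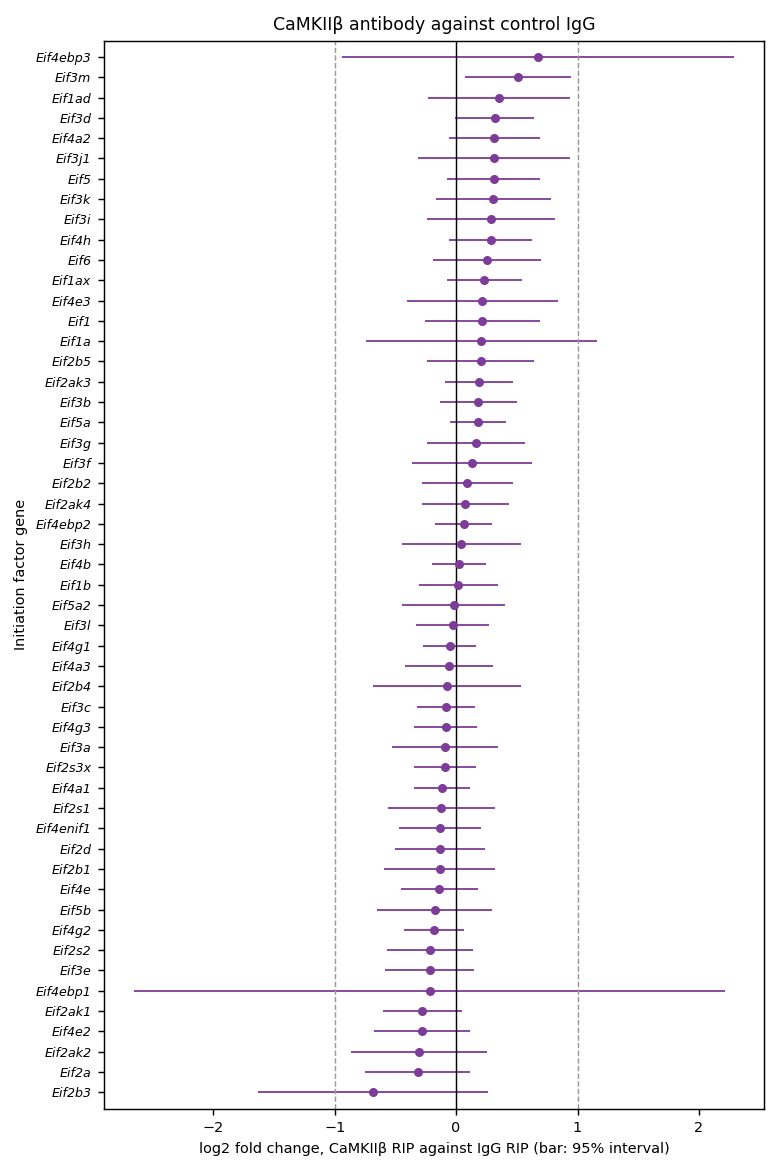
log2 fold change of 52 initiation factor genes in CaMKIIβ RIP (n = 3) against IgG RIP (n = 3), points with 95% intervals, ordered by value. Dashed lines mark a 2-fold difference, and 48 intervals lie between them.

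CaMKIIβ RIP and IgG RIP against Input ask which RNAs were more or less abundant, at scaled level, in the immunoprecipitates than in Input. With IgG, the mRNAs of start codon selection factors and of the α and β subunits of eIF2 were lower than in Input, and those of the scaffold eIF4G1, the eIF4E inhibitor 4E-BP2 and the eIF3 subunits d and l were higher, and part of these genes also passed with CaMKIIβ. In all, 12 of 53 members rose and 19 fell with IgG (22.6% and 35.8%), where 20.1% of all genes rose and 18.7% fell. With CaMKIIβ, 3 of 53 rose and 6 fell (5.66% and 11.3%), where 5.06% of all genes rose and 3.4% fell. Both comparisons used the same 2 Input libraries, so their calls are not independent. Of the calls, 15 of 31 with IgG and 0 of 9 with CaMKIIβ passed under all 16 alternatives run. The Eif3d call was lost in 3 of these with IgG and in 5 with CaMKIIβ. All CaMKIIβ RIP libraries lay above Input for 8 members and below for 20 (18.8% and 28.6% of all genes), and all IgG RIP libraries for 13 and 27 (26.8% and 33.8%). The median log2 fold change of the members was -0.10 with IgG and -0.09 with CaMKIIβ, beside -0.02 and -0.12 for all genes tested.

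The balance with IgG depended on the scaling. With library size alone, which moved the all-gene median to -0.25, 4 members rose and 29 fell, and with CaMKIIβ 0 rose and 9 fell. Over all genes, 2714 rose and 6345 fell with IgG under it, and 683 and 1361 with CaMKIIβ. In the main fit these were 4483 and 4170, and 1117 and 751. Library size scaling lost the IgG calls of Eif3b, Eif3c, Eif3d, Eif4b, Eif4e2, Eif4enif1, Eif4g3 and Eif2ak3. In 1 fit of all 8 libraries, 4 rose and 11 fell with IgG, and 6 and 13 with CaMKIIβ. Over all genes that fit called 2023 higher and 1653 lower with IgG, and 2070 and 1763 with CaMKIIβ. DESeq2 called 6 and 10 with CaMKIIβ, and 2102 and 1346 over all genes. The count with CaMKIIβ depended on single libraries. Without CaMKIIβ RIP replicate 1 the test called 0 members and 0 of all genes, and without replicate 2, the library that stood apart, 7 rose and 9 fell. Without CaMKIIβ RIP replicate 3, 2 rose and 8 fell. When Input replicate 1 or 2 was left out, 0 and 0 rose and 5 and 1 fell, and with IgG 7 and 6 rose and 16 and 13 fell, with the lone Input library assumed to vary like the RIP libraries. Astrocyte markers (5 of 6 found) summed to 7844 to 9246 CPM in CaMKIIβ RIP, 8683 to 9945 in IgG RIP and 3977 to 4069 in Input, and 6 oligodendrocyte markers to 9903 to 10279, 9396 to 10003 and 5710 to 5729. None of these markers was at 0. Vascular markers (6) summed to 240.5 to 263 CPM in CaMKIIβ RIP, 248 to 268 in IgG RIP and 136 to 138 in Input, and neuron markers (7) to 3044 to 3478, 3309 to 3502 and 3485 to 3585. Microglia markers (5 of 6 found) summed to 79.9 to 115, 93.4 to 105 and 69.5 to 70.6 CPM, and blood markers (5) to 181 to 356, 159.8 to 177 and 318 to 319.6. Single markers did not all go with these sums. With IgG against Input, 5 of 5 astrocyte, 4 of 6 oligodendrocyte, 5 of 6 vascular, 4 of 7 neuron and 2 of 5 microglia markers rose. In the same comparison 2 oligodendrocyte, 2 neuron, 1 microglia and 3 of 5 blood markers fell. Of all genes, 20.1% rose and 18.7% fell. The part of the marker shifts in the differences below was not tested.

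**Figure D3:**
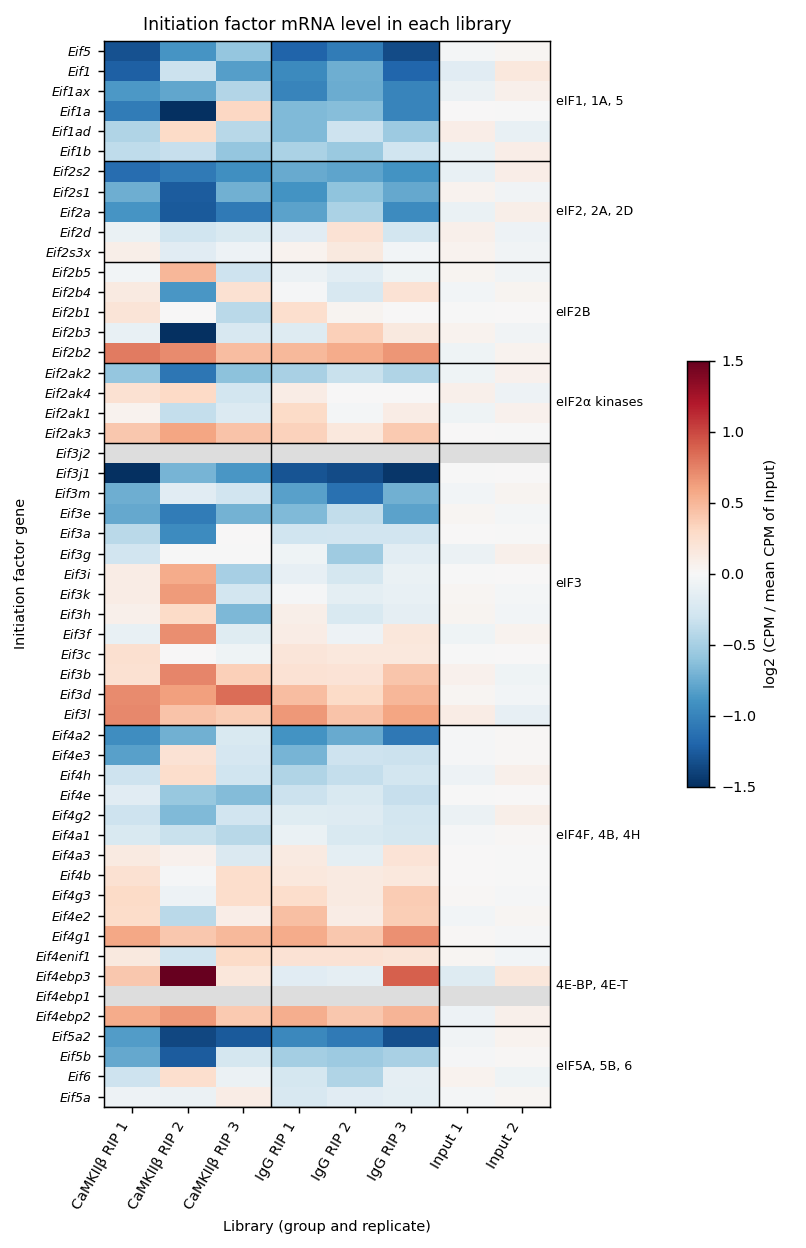
log2 ratio of CPM in each library to the mean of Input for the 53 initiation factor genes tested against Input, grouped by role. Colours end at 1.5 in either direction, and grey marks Eif3j2 and Eif4ebp1, with under 10 counts in some library. The block of eIF1, eIF1A and eIF5 genes is blue in the 3 IgG RIP libraries, and Eif4g1 and Eif4ebp2 are red in all 6 RIP libraries.

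All 6 genes listed with the start codon selection factors fell with IgG, where 18.7% of all genes fell. With CaMKIIβ 2 of the 6 fell (33.3%), where 3.4% of all genes did. The list includes Eif1ad, which is related to Eif1a by a domain. With IgG, the calls of Eif5, Eif1 and Eif1ax passed under all 16 alternatives run, while Eif1a was lost in 1 (the fit of all 8 libraries), Eif1b in 3 and Eif1ad in 7. Eif5 encodes the GTPase-activating protein of eIF2. Its level was 225 and 233 CPM in Input, 99.5, 111 and 90.3 in IgG RIP, and 92.6, 124 and 153 in CaMKIIβ RIP. Every RIP library lay below both Input libraries, and Eif5 fell with IgG by 1.14 ± 0.08 on the log2 scale (adjusted p = 9.51e-09) and with CaMKIIβ by 0.89 ± 0.20 (adjusted p = 0.0358). Eif1 was at 145 and 181 CPM in Input, 83.9, 98.2 and 71.5 in IgG RIP, and 69.8, 130.5 and 92.0 in CaMKIIβ RIP. Here too no RIP library reached Input. The log2 fold change was -0.90 ± 0.11 with IgG (adjusted p = 5.5e-06) and -0.74 ± 0.25 with CaMKIIβ, which did not pass (adjusted p = 0.123).

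Eif1ax encodes eIF1A, which binds the decoding site of the small subunit. It was at 149.6 and 167 CPM in Input, 79.8, 94.5 and 79.7 in IgG RIP, and 86.9, 92.2 and 117 in CaMKIIβ RIP, and it fell with both antibodies (-0.85 ± 0.08 with adjusted p = 4.55e-07, and -0.68 ± 0.15 with adjusted p = 0.0392). Its autosomal paralogue Eif1a was at 22.8 and 22.6 CPM in Input and 14.4, 14.6 and 11.5 in IgG RIP. With CaMKIIβ its replicates were 11, 7.03 and 28.2, on both sides of Input. Eif1a fell with IgG (-0.70 ± 0.14, adjusted p = 5.38e-04) and was at -0.56 ± 0.52 with CaMKIIβ, not past the threshold. Eif1b changed less, from 42.3 and 48.6 CPM in Input to 32.8, 30.9 and 37.1 in IgG RIP (-0.38 ± 0.11, adjusted p = 0.00806), and was 34.9, 35.9 and 30.5 in CaMKIIβ RIP (-0.43 ± 0.16, adjusted p = 0.171). Eif1ad, which holds an eIF1A-like domain, had the highest adjusted p of the 6 calls (-0.45 ± 0.16 with IgG, adjusted p = 0.0337), and its adjusted p reached 0.324 among the 7 alternatives that lost it, which include DESeq2, the removal of the length trend and each Input library left out.

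Of 5 genes that deliver the initiator tRNA, 3 fell with IgG and 2 with CaMKIIβ, and 0 rose. The falls were 60% and 40% of the 5, against 18.7% and 3.4% of all genes. The subunits of eIF2 itself went apart. Eif2s2, the β subunit, was at 39.9 and 46.1 CPM in Input, 25.4, 24.8 and 23.0 in IgG RIP, and 19.4, 20.6 and 22.6 in CaMKIIβ RIP. All RIP libraries lay below Input, with log2 fold changes of -0.76 ± 0.11 (adjusted p = 1.82e-05) and -1.04 ± 0.17 (adjusted p = 0.016). Eif2s1, the α subunit that stress kinases phosphorylate, was at 35.4 and 32.9 CPM in Input, 18.4, 22.5 and 20.02 in IgG RIP, and 20.6, 14.3 and 20.7 in CaMKIIβ RIP. It fell with IgG (-0.69 ± 0.12, adjusted p = 1.19e-04), and with CaMKIIβ (-0.88 ± 0.22) it stood just outside the threshold at an adjusted p of 0.051. The γ subunit gene Eif2s3x, at 82.8 and 77.5 CPM in Input, was at 83.2, 88.4 and 77.9 in IgG RIP and 85.0, 71.2 and 76.0 in CaMKIIβ RIP, with overlapping groups. Its 95% intervals ran from -0.06 to 0.28 with IgG and from -0.36 to 0.27 with CaMKIIβ on the log2 scale.

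Within a library, the ratio of 2 members' counts per kb does not depend on the scaling of libraries. The ratio of Eif2s1 to Eif2s3x was 0.33 and 0.327 in Input, 0.17, 0.196 and 0.198 in IgG RIP, and 0.186, 0.155 and 0.209 in CaMKIIβ RIP. Eif2s2 over Eif2s3x gave 0.272 and 0.336 in Input against 0.159 to 0.173 and 0.129 to 0.168. For both ratios no RIP library reached Input, so within libraries the α and β mRNAs were low relative to the γ mRNA of Eif2s3x. The gene that shares part of the span of Eif2s3y, the Y-linked γ gene, lay below Input in all RIP libraries, as given in the closing section. Pairs for such ratios were chosen with the fold changes known, and with 3 against 2 libraries a two-sided exact permutation test cannot go below p = 0.2, so none was run. Of 14 pairs compared, 8 ratios had all CaMKIIβ RIP libraries above Input, 3 below and 3 overlapping, and with IgG these were 8, 5 and 1. The share over other gene pairs was not computed. Eif2a, a separate tRNA-binding factor and not the α subunit, was at 34.1 and 38.8 CPM in Input, 20.9, 26.2 and 18.9 in IgG RIP, and 19.7, 15.3 and 17.5 in CaMKIIβ RIP. It fell with both antibodies (-0.68 ± 0.13 and -1.05 ± 0.19, adjusted p = 4.93e-04 and 0.0204). Eif2d, which takes part in recycling, was at -0.01 ± 0.13 and -0.20 ± 0.16, not past the threshold.

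eIF2B recharges eIF2 with GTP. Among its 5 subunit genes 1 rose with IgG (20%, near the 20.1% of all genes), 0 with CaMKIIβ, and 0 fell. That gene was Eif2b2, the β subunit. Its level was 13.3 and 14.5 CPM in Input, 19.5, 20.4 and 22.1 in IgG RIP, and 23.8, 22.7 and 19.2 in CaMKIIβ RIP. Both RIP groups lay above Input, with log2 fold changes of 0.63 ± 0.13 (adjusted p = 8.58e-04) and 0.66 ± 0.21 (adjusted p = 0.108). Eif2b5, the catalytic ε subunit, was at -0.05 ± 0.09 with IgG and 0.09 ± 0.25 with CaMKIIβ. Eif2b3, the γ subunit, had 54 counts in CaMKIIβ RIP replicate 2 and 240 to 402 in the other libraries, that is 3.14 CPM against 11.6 to 17.4. Eif2b1 and Eif2b4 did not pass either, at 0.16 ± 0.13 and 0.05 ± 0.13 with IgG.

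The 4 kinases that phosphorylate eIF2α answer to different stresses. Eif2ak3 (PERK), the sensor of unfolded protein in the endoplasmic reticulum, was at 41.0 and 40.7 CPM in Input, 52.0, 45.5 and 53.7 in IgG RIP, and 53.9, 61.7 and 55.0 in CaMKIIβ RIP. It rose with IgG (0.36 ± 0.10, adjusted p = 0.00638), and with CaMKIIβ the value was 0.48 ± 0.15 (adjusted p = 0.0922), with all RIP libraries above Input in both. Eif2ak2 (PKR), which senses double-stranded RNA, was lower in every RIP library (5.75 to 9.6 CPM) than in Input (11.6 and 12.7) and did not pass with IgG (-0.37 ± 0.16, adjusted p = 0.0731) or CaMKIIβ (-0.74 ± 0.29, adjusted p = 0.177). Eif2ak1, the haem-regulated kinase, and Eif2ak4 (GCN2), which senses uncharged tRNA, were at 0.18 ± 0.10 and 0.10 ± 0.09 with IgG, not past the threshold.

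Of 14 eIF3 genes, 4 rose and 5 fell with IgG (28.6% and 35.7%), where 20.1% of all genes rose and 18.7% fell. With CaMKIIβ 1 rose and 1 fell (7.14% each), where 5.06% of all genes rose and 3.4% fell. Apart from its low-count copy, the largest fall was that of Eif3j1, a loosely bound subunit that acts at the decoding centre. It was at 38.1 and 38.6 CPM in Input, 15.7, 15.1 and 14.0 in IgG RIP, and 10.6, 23.7 and 21.0 in CaMKIIβ RIP. The groups did not overlap, and the log2 fold changes were -1.31 ± 0.11 (adjusted p = 8.91e-08) and -1.06 ± 0.32 (adjusted p = 0.0936). Its copy Eif3j2 passed with IgG (adjusted p = 0.0385) on 1, 1 and 5 counts against 17 and 11 in Input and was lost in 7 of 16 alternatives, so no fold is given. Eif3m was at 36.1 and 38.3 CPM in Input against 21.2, 17.1 and 22.6 in IgG RIP (-0.82 ± 0.12, adjusted p = 4.09e-05), and at -0.37 ± 0.21 with CaMKIIβ.

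Eif3e, a subunit that meets eIF4G, was at 61.3 and 58.4 CPM in Input, 37.7, 46.3 and 34.4 in IgG RIP, and 35.3, 28.9 and 36.7 in CaMKIIβ RIP. It fell with both antibodies (-0.55 ± 0.11 with adjusted p = 6.93e-04, and -0.83 ± 0.16 with adjusted p = 0.0258). Its partner Eif3d, which can bind the cap, went the other way. From 20.3 and 19.3 CPM in Input it was at 27.3, 24.2 and 28 in IgG RIP (0.48 ± 0.12, adjusted p = 0.00361) and 32.5, 30.4 and 35.4 in CaMKIIβ RIP (0.73 ± 0.18, adjusted p = 0.0475). The ratio of Eif3d to Eif3e per kb was 0.448 in both Input libraries, 0.706 to 1.10 in IgG RIP and 1.25 to 1.42 in CaMKIIβ RIP. The 3 groups did not overlap for this ratio. Between the antibodies, 12 of the 14 ratios overlapped and 0 lay below. The 2 that were above in all CaMKIIβ RIP libraries were this one and Eif2ak3 over Eif2ak2. Their numerators, Eif3d and Eif2ak3, also lay above IgG RIP in level, and Eif2ak2 lay below. No share over other gene pairs was computed, and neither Eif3d nor Eif3e passed in CaMKIIβ RIP against IgG RIP.

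Eif3l, which lies at the edge of the complex, was at 44.0 and 37.6 CPM in Input, 63.8, 55.0 and 61.3 in IgG RIP, and 67.4, 55.0 and 52.6 in CaMKIIβ RIP. It rose with IgG (0.61 ± 0.10, adjusted p = 8.34e-05), and with CaMKIIβ it was at 0.52 ± 0.17 (adjusted p = 0.119), with no overlap in either comparison. The core subunit genes did not go one way. With IgG, Eif3b rose (0.34 ± 0.09, adjusted p = 0.00426), Eif3c rose (0.22 ± 0.07, adjusted p = 0.0134) and Eif3a, the largest subunit, fell (-0.24 ± 0.06, adjusted p = 0.00714). With library size alone as the scaling, Eif3c turned to -0.0064 and did not pass. The other 5 tested subunits, Eif3f, Eif3g, Eif3h, Eif3i and Eif3k, lay between -0.19 and 0.13 with IgG and did not pass.

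**Figure D4:**
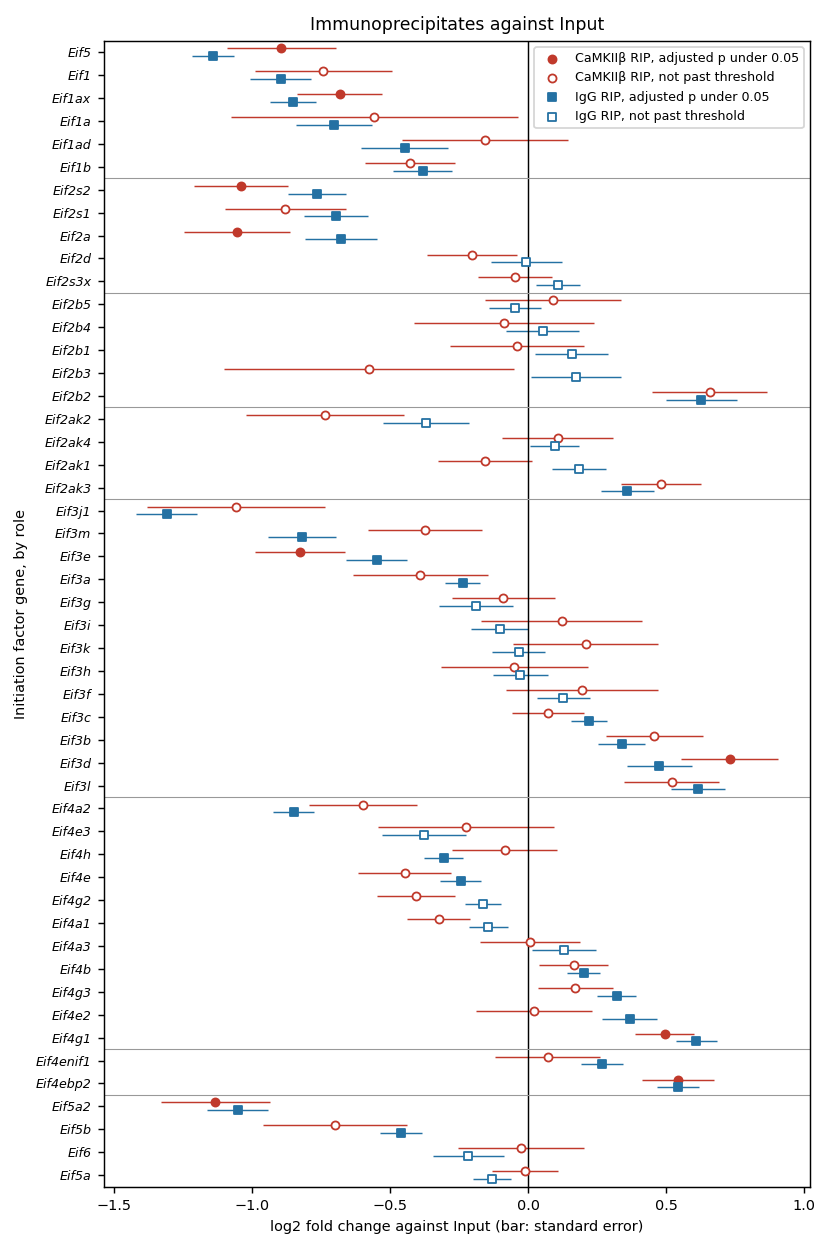
log2 fold change with SE of 50 initiation factor genes against Input (n = 2) in CaMKIIβ RIP (red circles, n = 3) and IgG RIP (blue squares, n = 3), by role, without the low-count genes Eif3j2, Eif4ebp1 and Eif4ebp3. Filled symbols are past an adjusted p of 0.05, and the start codon selection genes at the top lie left of 0 with both antibodies.

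Among 11 tested genes of eIF4F and its cofactors, 4 rose and 3 fell with IgG, and 1 rose with CaMKIIβ. These were 36.4%, 27.3% and 9.09% of the 11, against 20.1%, 18.7% and 5.06% of all genes. Eif4g1, the scaffold that joins the cap-binding protein to the helicase and to eIF3, was at 296 and 287 CPM in Input, 429, 386 and 470 in IgG RIP, and 437, 385 and 407 in CaMKIIβ RIP. It rose 1.53-fold with IgG (log2 fold change 0.61 ± 0.07, adjusted p = 5.05e-06) and 1.41-fold with CaMKIIβ (0.49 ± 0.11, adjusted p = 0.0332), with all RIP libraries above Input. Its paralogue Eif4g3 was at 255 and 248 CPM in Input and 303, 277 and 328 in IgG RIP (0.32 ± 0.07, adjusted p = 0.00149), and at 307, 239.6 and 302 in CaMKIIβ RIP (0.17 ± 0.14). Eif4g2 was not higher in any RIP library: it was at 516 and 582 CPM in Input, 483, 479.6 and 455 in IgG RIP and 444, 347 and 450.4 in CaMKIIβ RIP. The values of -0.16 ± 0.06 and -0.41 ± 0.14 did not pass (adjusted p = 0.0591 and 0.134). Eif4g1 over Eif4g2, per kb, was 0.798 and 0.687 in Input, 1.12 to 1.44 in IgG RIP and 1.26 to 1.55 in CaMKIIβ RIP, and Eif4g3 over Eif4g2 was also above Input in every RIP library.

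Of the eIF4A helicases, only Eif4a2, the form abundant in brain, passed a threshold in these 2 comparisons. It was at 452 and 460.4 CPM in Input, 245, 269 and 218 in IgG RIP, and 238, 276 and 388 in CaMKIIβ RIP. The fall with IgG was 0.85 ± 0.08 on the log2 scale (adjusted p = 1.53e-07), and the value with CaMKIIβ was -0.60 ± 0.20 (adjusted p = 0.115). Eif4a1 was at 145 and 149 CPM in Input, 137, 125 and 122 in IgG RIP, and 126, 116 and 110.1 in CaMKIIβ RIP, values that lay below Input and did not pass (-0.14 ± 0.07 and -0.32 ± 0.11, adjusted p = 0.122 and 0.141). The ratio of Eif4a2 to Eif4a1 per kb was 2.53 and 2.5 in Input and 1.44 to 1.74 in IgG RIP. In CaMKIIβ RIP it spanned 1.54 to 2.86, around Input. Eif4a3, the helicase of the exon junction complex, was at 0.13 ± 0.12 and 0.01 ± 0.18.

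Eif4e, the cap-binding subunit, was at 92.5 and 93.3 CPM in Input, 74.0, 79.2 and 73.3 in IgG RIP, and 82.4, 62.6 and 59.1 in CaMKIIβ RIP. It fell with IgG (-0.24 ± 0.07, adjusted p = 0.0149), and with CaMKIIβ it was at -0.45 ± 0.17 (adjusted p = 0.167). Eif4e2 encodes 4EHP, a cap-binding protein that does not recruit eIF4G and represses translation. It was at 50.8 and 53.4 CPM in Input and 71.1, 56.0 and 67.1 in IgG RIP (0.37 ± 0.10, adjusted p = 0.00671), with CaMKIIβ RIP at 63.0, 39.5 and 55.6, around Input. Eif4e3 was at -0.38 ± 0.15 with IgG (adjusted p = 0.0601). The helicase cofactor genes parted, with Eif4b higher (0.20 ± 0.06, adjusted p = 0.0142) and Eif4h lower (-0.31 ± 0.07, adjusted p = 0.00207) with IgG. With library size alone Eif4b turned to -0.025 and did not pass.

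Of 4 genes whose products bind eIF4E to hold it back or carry it, 2 rose with IgG, 1 with CaMKIIβ, and 0 fell. The rises were 50% and 25% of the 4, against 20.1% and 5.06% of all genes. Eif4ebp2, the main 4E-BP of brain, was at 84.4 and 94.2 CPM in Input, 131, 118 and 127 in IgG RIP, and 132, 140.1 and 118 in CaMKIIβ RIP. It rose 1.46-fold with both antibodies (0.54 ± 0.08 with adjusted p = 2.3e-05, and 0.54 ± 0.13 with adjusted p = 0.0477). The ratio of Eif4ebp2 to Eif4e per kb was 0.948 and 1.05 in Input, 1.55 to 1.83 in IgG RIP and 1.66 to 2.33 in CaMKIIβ RIP, without overlap. Eif4enif1, which encodes the transporter of eIF4E into the nucleus, rose with IgG (0.27 ± 0.08, adjusted p = 0.0106). Eif4ebp3, with 18 to 62 counts, and Eif4ebp1 had too few counts for a narrow interval (-0.67 to 1.36 and -1.02 to 2.09 with IgG).

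**Figure D5:**
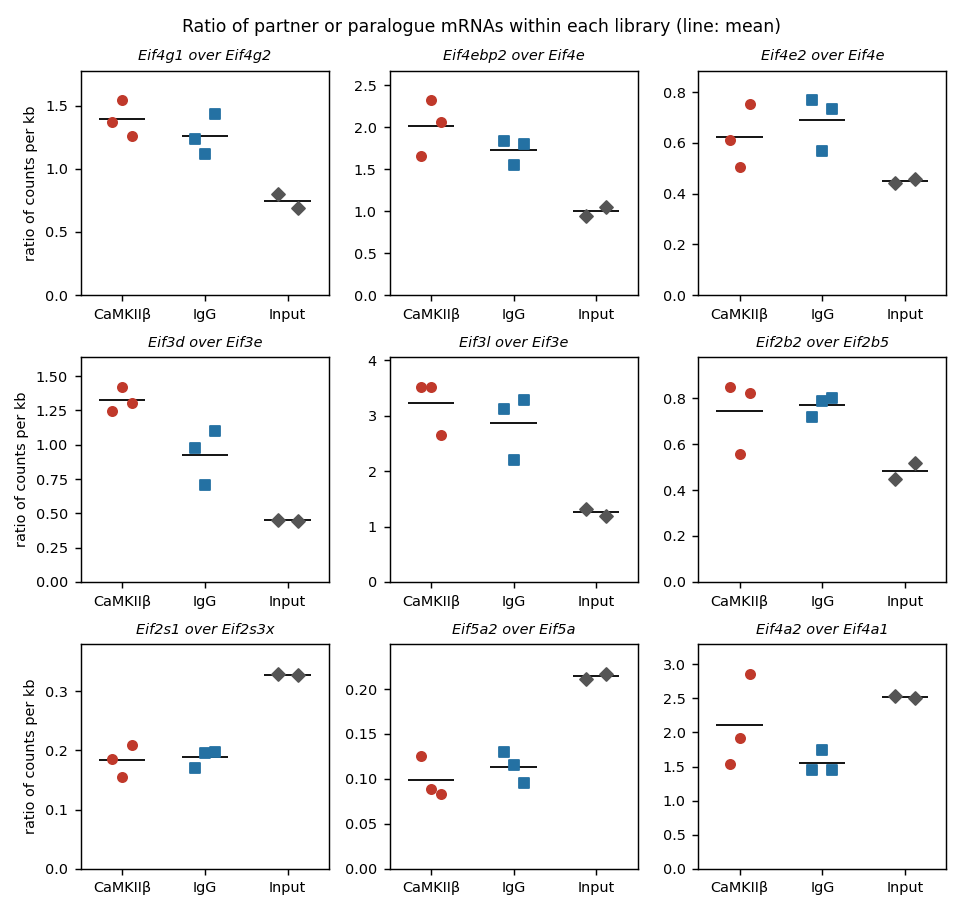
Ratio of the counts per kb of 2 initiation factor mRNAs within each library for 9 of 14 pairs, with the mean as a line, in CaMKIIβ RIP (n = 3), IgG RIP (n = 3) and Input (n = 2). Eif4g1 over Eif4g2 lies at 0.798 or less in Input and at 1.12 or more in the RIP libraries, and Eif4a2 over Eif4a1 spans Input only in CaMKIIβ RIP.

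Eif5a2, a paralogue of the hypusine-bearing factor eIF5A, was at 51.0 and 54.6 CPM in Input, 27.1, 25.4 and 21.2 in IgG RIP, and 29.5, 20.6 and 22.0 in CaMKIIβ RIP. It was 2.07-fold lower with IgG (log2 fold change -1.05 ± 0.11, adjusted p = 9.23e-07) and 2.19-fold lower with CaMKIIβ (-1.13 ± 0.20, adjusted p = 0.018). Eif5a itself was at 114 and 119 CPM in Input and 98.4 to 126 in the RIP libraries and did not pass (-0.13 ± 0.07 with IgG, -0.01 ± 0.12 with CaMKIIβ). Eif5a2 over Eif5a, per kb, was 0.211 and 0.217 in Input and 0.0829 to 0.13 in the 6 RIP libraries. Eif5b, the GTPase that joins the ribosomal subunits, fell with IgG from 80.3 and 81.7 CPM to 56.8, 55.5 and 57.7 (-0.46 ± 0.08, adjusted p = 1.23e-04), and was 47.7, 34.0 and 67.6 in CaMKIIβ RIP (-0.70 ± 0.26, adjusted p = 0.162). Eif6, which keeps the large subunit free, was at -0.22 ± 0.13 and -0.03 ± 0.23, not past the threshold.

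Exon length was set beside the differences. Spearman's rho between exon length and the log2 fold change was -0.04 with IgG and -0.22 with CaMKIIβ against Input over 53 members, and 0.163 and 0.169 over all genes tested. For CaMKIIβ RIP against IgG RIP it was -0.409 over 52 members, the shorter mRNAs having the higher fold changes, and 0.0282 over all genes. Some short members were high only in CaMKIIβ RIP replicate 2, the library that stood apart. Eif3f was at 45.4, 79.4 and 43.0 CPM in replicates 1 to 3 and at 52.8, 46.4 and 55.2 in IgG RIP. Others, such as Eif5a at 111, 110 and 126 CPM with CaMKIIβ, were not highest there. A rho without that library was not computed. Each rho describes genes that share libraries and carries no test. The 12 members that rose with IgG had a median exon length of 5376 bases and the 19 that fell one of 5338. The 22 not past the threshold had a shorter median, 2700 bases. Median Input levels were 65.7, 52.8 and 34.7 CPM in the same order. The part of length or level in whether a member passed was not tested. Removal of the length trend of all genes gave 12 higher and 18 lower with IgG and 5 higher and 5 lower with CaMKIIβ, where the median of the members moved from -0.09 to 0.10. Eif1b and Eif1ad (IgG) and Eif1ax (CaMKIIβ) no longer passed under it. With IgG, E box letters stood in the windows of 1 of 12 higher, 5 of 16 lower and 4 of 14 members not past the threshold. GC box letters stood in 10 of 12, 13 of 16 and 9 of 14.

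Other genes of translation and of its control were described from lists chosen with earlier results of these data known. Their counts stand beside 20.1% of all genes higher and 18.7% lower with IgG, and 5.06% and 3.4% with CaMKIIβ. Of 8 tested elongation factor genes, 5 rose and 2 fell with IgG, and 2 rose with CaMKIIβ. Eef2, the translocase, was at 0.94 ± 0.06 and 0.94 ± 0.14, and Eef1a2, the neuronal form of the tRNA carrier, at 0.91 ± 0.07 and 0.77 ± 0.14. Eef1b2, an exchange factor, fell with IgG (-0.48 ± 0.11), as did Eef1e1. Of 6 tested termination and recycling genes, 4 fell with IgG, 1 with CaMKIIβ, and 0 rose, among them Mcts1, which has a retrogene copy (-2.12 ± 0.17 with IgG), and the recycling ATPase gene Abce1 (-0.64 ± 0.08 and -1.02 ± 0.24, past the threshold in both).

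Of 12 genes that carry mTOR and MNK signals to eIF4E, 7 rose and 3 fell with IgG, and 4 rose and 1 fell with CaMKIIβ. Mtor was at 1.41 ± 0.07 and 1.38 ± 0.11, and its partner Rptor at 1.02 ± 0.07 and 1.01 ± 0.13. Pdcd4, which inhibits the helicase eIF4A, fell with both (-0.96 ± 0.09 and -1.23 ± 0.19). Of 7 tested poly(A)-binding proteins and partners, 2 rose and 4 fell with IgG, and 0 passed with CaMKIIβ. Pabpc1, which binds poly(A) and eIF4G, was at 0.59 ± 0.06 and Larp1, which binds TOP mRNAs, at 0.71 ± 0.07, while the Pabpc1 inhibitors Paip2 (-0.59 ± 0.07) and Paip2b and the stimulator Paip1 (-0.70 ± 0.09) fell.

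Of 13 repressors and accessory helicases, 4 rose and 5 fell with IgG, and 2 rose and 0 fell with CaMKIIβ. Cyfip1, the eIF4E-binding partner of the fragile X protein, rose with both (0.86 ± 0.07 and 0.86 ± 0.13), and Fmr1, which encodes that protein, fell with IgG (-0.79 ± 0.08). Of 9 genes of the eIF2 phosphatase and the stress response, 1 rose with both antibodies, Gcn1, the activator of Eif2ak4 (0.98 ± 0.08 and 1.20 ± 0.18). Known TOP mRNAs outside the ribosomal proteins gave 5 higher and 5 lower of 11 with IgG and 1 higher and 3 lower with CaMKIIβ. This list shares Eef1b2, Eef1d, Eef1g, Eef2 and Pabpc1 with the lists above, and these include 4 of its 5 higher genes with IgG. Those among the initiation factors (Eif3a, Eif3e, Eif3f, Eif3h and Eif4b) gave 1 higher and 2 lower of 5, and 0 and 1. In CaMKIIβ RIP against IgG RIP, 0 genes of these 7 lists passed.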

How the data were processed

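The authors deposited raw counts per gene for 8 libraries. Trim Galore 0.6.4, cutadapt 2.10, STAR 2.7.3a, featureCounts 2.0.1 and GRCm38.p6 were used, per the submitters' processing notes. Strandedness, the handling of multimapped and duplicate reads and the release of the annotation are not given in the sources used here, so reads of overlapping antisense genes cannot be told apart. All 8 columns were mapped by name. RefSeq symbols on GRCm38.p6 were joined to Ensembl genes as mutual best partners sharing at least 0.5 of their span, with any second partner under 0.8 of that share, which named 34128 of 55401 genes.

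For each comparison, only the libraries compared were fitted, with edgeR 4.0.16 (R 4.3.3; robust quasi-likelihood F test, TMM, filterByExpr with a minimum count of 10 and total of 15) and Benjamini-Hochberg adjustment over all genes tested at 0.05. Intervals are at 95%, and limits for 0 counts cover counting error only. Fits were tested on simulated data. Alternatives were other scalings (RLE, upper quartile, library size, TMM with mitochondrial genes left out), 2 other count filters, DESeq2 1.42.0, limma-voom 3.58.1, all 8 libraries, a replicate block, removal of the exon length trend (loess span 0.5), a span share of 0.8 and each library left out. Members, lists and alternatives were chosen with earlier results of these data known. By rule, values are given for called members whose average log2 CPM was 1 or more and whose libraries did not overlap (up to 6 in each direction), the 6 smallest p between the antibodies, the 5 highest levels and paralogues; others were added after their values were seen.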

Additional observations from a re-analysis of the deposited data

Results flagged for a closer look

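The gene that shared 0.474 of its span with Eif2s3y, the Y-linked γ subunit of eIF2, fell short of the share required for a name and was left out of the members, yet it held up to 405 counts in a library. It was at 17.4 CPM in both Input libraries, 8.6, 8.07 and 7.15 in IgG RIP, and 6.25, 6.45 and 11.1 in CaMKIIβ RIP. All RIP libraries lay below Input, with log2 fold changes of -1.08 ± 0.15 with IgG (SE, edgeR adjusted p = 1.9e-05) and -1.13 ± 0.32 with CaMKIIβ (adjusted p = 0.0736). It was singled out after its values were seen.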

How the results depend on the processing

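In CaMKIIβ RIP against IgG RIP, 0 members passed in either direction under all alternatives run, including the replicate block. Against Input with CaMKIIβ (3 higher, 6 lower), library size scaling gave 0 higher and 9 lower, no count filter 5 higher, DESeq2 6 and 10, limma-voom 10 lower, the fit of all 8 libraries 6 and 13, removal of the length trend 5 higher, and each library left out 0 to 7 higher and 0 to 9 lower. The replicate block gave 5 higher and 15 lower with CaMKIIβ and 12 and 20 with IgG. Over all genes the block gave 1986 higher and 2219 lower with CaMKIIβ, and 4611 and 4320 with IgG. With CaMKIIβ, all-gene counts were 1854 and 1012 without a count filter and 1362 and 1298 with limma-voom. Removal of the length trend gave 1638 and 602. No label says that equal numbers share animals or a lysate, so the numbers were not taken to pair libraries. Deviations from group means had r between -0.136 and 0.213 for same-numbered libraries and -0.213 and 0.108 for unlike-numbered ones. With 3 or 2 libraries in a group, these deviations are tied to each other and cannot decide on pairing. With IgG (12 higher, 19 lower), library size scaling gave 4 and 29, with Eif3c at -0.0064 and Eif4b at -0.025 turned in direction, the fit of all 8 libraries 4 and 11, and each library left out 6 to 13 and 13 to 19. The causes were not tested. Of 31 calls with IgG 15, and of 9 with CaMKIIβ 0, passed under every alternative fit. Summed levels at library size were 3868 CPM in IgG RIP and 4963 in Input. With a span share of 0.8 there were 12 higher and 18 lower with IgG. Adding the Eif2s3y locus, chosen after seeing the data, gave 12 and 20.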
